A study of Bos taurus with 12 samples.

Results

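9 regulators of muscle RNA splicing were followed from proliferating bovine myoblasts to day 4 myotubes: MBNL1, MBNL2, CELF1, CELF2, RBFOX2, QKI, RBM24, RBM38 and PTBP1. They were taken by gene symbol from the table of gene expression, as 9 of its 18436 genes, and by the same symbols from the lists of N6-methyladenosine (m6A) peaks, as 19 of 19739 peaks in myoblasts and 19 of 20790 in myotubes. The cells were primary myoblasts from the longissimus dorsi muscle of newborn Qinchuan cattle, of a single calf according to the study's methods. Group GM was cultured to 80% confluence in growth medium with 20% fetal bovine serum. Group DM had reached 100% confluence and spent 4 days in differentiation medium with 2% horse serum, both media were DMEM/F12 with penicillin and streptomycin, and the labels name no genetic change in either group. Each group had 3 input libraries, which gave the RNA levels, and 3 libraries immunoprecipitated with an antibody to m6A (IP), which gave 1 peak list per group. No label ties the libraries of a group to separate animals, so the p-values measure the spread between these libraries.

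Before a transcript leaves the nucleus its introns are removed, and RNA-binding proteins decide which exons are kept. MBNL and CELF proteins act in opposite directions on many of the same exons as fetal muscle matures, and RBFOX and QKI proteins bind short motifs beside muscle exons. RBM24 and RBM38 are closely related proteins with an RNA recognition motif that act on splicing and on the stability of muscle mRNAs, and PTBP1 is the polypyrimidine tract-binding protein that holds many tissue-specific exons out of the mRNA. The table gives a level for a whole gene, so isoforms and exon inclusion were not measured.

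All 9 genes were expressed in all 6 input libraries. The level is given as FPKM, fragments per kilobase of exon scaled to the mapped reads of the library, which takes account of gene length and so can be compared between genes. In GM, mean FPKM ± SD (n = 3) ran from 123 ± 9.96 for QKI and 91.5 ± 3.53 for PTBP1 down to 11.0 ± 0.358 for CELF1 and 8.48 ± 0.455 for RBM38. RBM24, MBNL1, MBNL2, RBFOX2 and CELF2 lay between, with mean GM levels from 24.0 to 17.5 FPKM. QKI and PTBP1 stood at the 96.3 and 94.5 percentiles of the genes tested by mean level, and RBM38 stood at 53.0.

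Neighbours in this order could not all be told apart. The GM libraries of RBM24 overlapped in level with those of MBNL1, those of MBNL1 with MBNL2, and those of MBNL2 with RBFOX2. In DM, RBM24 lay above MBNL1 in every library, and MBNL1, RBFOX2 and MBNL2 again overlapped as neighbours. QKI, PTBP1, CELF2, CELF1 and RBM38 kept the first, the second and the last 3 places in both groups, each apart from the next without overlap.

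**Figure D1:**
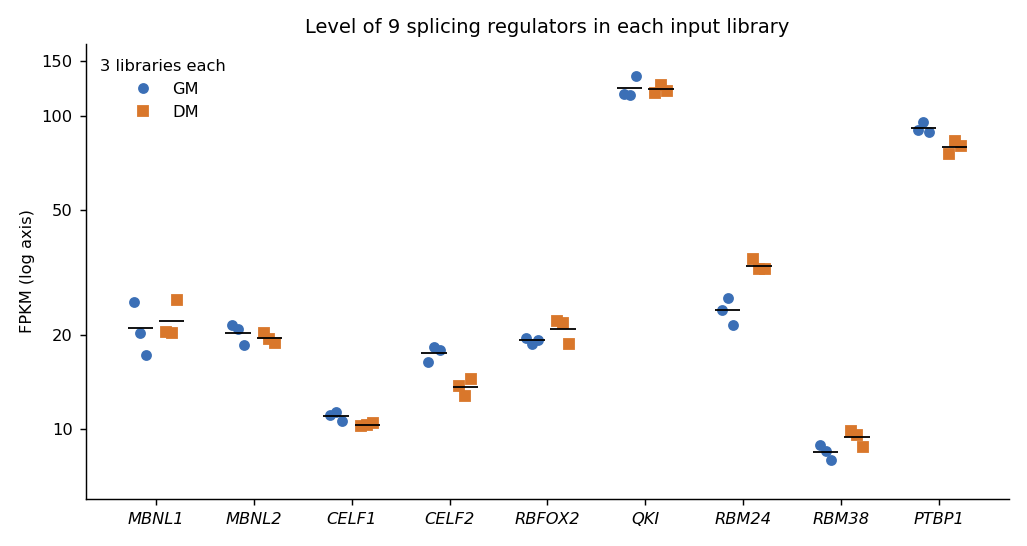
FPKM (log axis) of each of the 9 regulators, with a circle for each of 3 GM input libraries, a square for each of 3 DM input libraries and a line at the group mean. The DM points of RBM24 lie above its GM points, those of CELF2, CELF1 and PTBP1 lie below, and the other 5 genes overlap.

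3 of the 9 genes differed between GM and DM at an adjusted p under 0.05, which is called passing here, and the changes were small. RBM24 rose, and CELF2 and PTBP1 fell. Of the 12302 genes tested, whose mean over the libraries was 0.5 FPKM or more, 16.1% passed as higher in DM and 26.7% as lower. None of the 9 also exceeded a fold change of 1.5, a size that 4.89% of all tested genes reached upward and 6.88% downward at that adjusted p. Test values come from limma on log2(FPKM + 1), with Benjamini-Hochberg adjustment over all tested genes, and fold changes are on that scale. The FPKM of GM and DM did not overlap for 4 of the 9 genes, against 54.1% of all tested genes. The median log2 fold change was -0.01 for the 9 genes and -0.05 for all tested genes.

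RBM24 had the greatest change of the 9. This protein, encoded at chr23:40056293-40067746 on the minus strand of ARS-UCD1.2 (ENSBTAG00000015396), promotes inclusion of muscle exons and is needed for sarcomere assembly. Its GM libraries held 24.1, 26.3 and 21.5 FPKM, and its DM libraries 34.9, 32.5 and 32.4 FPKM. Every DM library stood above every GM library. This gave a log2 fold change of 0.46 ± 0.076 (SE), a 95% interval from 0.29 to 0.63, a fold of 1.38 and an adjusted p of 0.0016 by limma. It passed in all 16 alternative settings, with adjusted p from 0.00059 to 0.010 in the 15 that adjust it, and its log2 fold change of 0.59 after scaling to TPM passed the 1.5-fold limit. Among the 16, the 2-fold limit and the unadjusted p reuse the fit above, so a gene that passed in it could not fail there.

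RBM38, its paralog, lies at chr13:58757856-58773523 on the minus strand (ENSBTAG00000008105) and is known for binding the mRNAs of p21 (CDKN1A) and MYOG. It held 8.91, 8.54 and 8.0 FPKM in GM and 9.91, 9.62 and 8.76 FPKM in DM. The lowest DM library fell among the GM libraries. Its log2 fold change was 0.14 ± 0.067 (SE), with a 95% interval from -0.02 to 0.29 and an adjusted p of 0.14 by limma, so it did not pass. It did pass after TPM scaling, at a log2 fold change of 0.27 and adjusted p = 0.029, and with median-of-ratios size factors, at 0.19 and 0.047.

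Within a library the ratio of RBM38 to RBM24 does not depend on how the library was scaled. The ratio was 0.370, 0.324 and 0.371 in GM and 0.284, 0.296 and 0.270 in DM, lower in each DM library than in any GM library. The difference of log2 ratio was -0.32, with p = 0.10 by a two-sided exact permutation test. With 3 libraries against 3, 0.10 is the smallest p that this test can give, and adjusted over the 3 paralog ratios tested it was 0.15.

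CELF2 fell while CELF1 did not pass. CELF2, at chr13:12875332-13197450 on the minus strand (ENSBTAG00000008937), is a member of the CUGBP Elav-like family that controls exon choice and mRNA turnover. Its GM libraries held 16.5, 18.3 and 17.9 FPKM and its DM libraries 13.8, 12.8 and 14.4 FPKM. All 3 DM libraries were below all 3 GM libraries. Its log2 fold change was -0.34 ± 0.065 (SE), with a 95% interval from -0.49 to -0.19, which made the GM level 1.26 times the DM level, at an adjusted p of 0.0038 by limma. It also passed in all 16 alternative settings, with adjusted p from 0.0035 to 0.037 in those 15.

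CELF1, at chr15:77288832-77368002 on the minus strand (ENSBTAG00000002520), is the founding CUG-binding member of the family. It held 11.2, 11.3 and 10.7 FPKM in GM and 10.2, 10.3 and 10.5 FPKM in DM. The groups did not overlap, but the gap between them was narrow. By limma the log2 fold change was -0.09, with a 95% interval from -0.21 to 0.03 and an adjusted p of 0.22. After TPM scaling the sign turned, to 0.03.

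The ratio of CELF2 to CELF1 was 1.48, 1.61 and 1.68 in the GM libraries and 1.35, 1.24 and 1.38 in the DM libraries. CELF2 was thus above CELF1 in every library, and by less in each DM library than in any GM library. The difference of log2 ratio was -0.26, again at the smallest attainable exact permutation p of 0.10 (adjusted 0.15).

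Neither MBNL gene passed. MBNL1 and MBNL2 are muscleblind-like proteins, best known for their sequestration on expanded CUG repeats in myotonic dystrophy. MBNL1, at chr1:115303718-115524968 on the minus strand (ENSBTAG00000004564), held 25.6, 20.3 and 17.3 FPKM in GM and 20.5, 20.3 and 25.9 FPKM in DM. Its libraries varied more within a group than those of any of the other 8 genes, relative to their mean, and the groups overlapped. Its log2 fold change was 0.08, with a 95% interval from -0.24 to 0.41 and an adjusted p of 0.67 by limma. Its sign turned when a single library was left out, to -0.04 without the third GM library and to -0.03 without the third DM library.

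MBNL2, at chr12:74410787-74571445 on the plus strand (ENSBTAG00000018313), held 21.5, 20.9 and 18.6 FPKM in GM and 20.3, 19.5 and 18.9 FPKM in DM. The groups overlapped, with a log2 fold change of -0.06, a 95% interval from -0.21 to 0.10 and an adjusted p of 0.54 by limma. The sign turned under TPM scaling (0.07) and median-of-ratios size factors (0.01). The ratio of MBNL2 to MBNL1 was 0.843, 1.03 and 1.08 in GM and 0.988, 0.959 and 0.727 in DM, which also overlapped, at an exact permutation p of 0.50.

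RBFOX2 and QKI, which read short motifs next to exons, did not pass either. RBFOX2, at chr5:73899444-74189188 on the minus strand (ENSBTAG00000020125), held 19.6, 18.7 and 19.3 FPKM in GM and 22.1, 21.8 and 18.7 FPKM in DM. Its first and second DM libraries were above GM and the third lay within it. Its log2 fold change was 0.11, with a 95% interval from -0.05 to 0.27 and an adjusted p of 0.24 by limma. RBFOX2 passed without the third DM library, at 0.18 and adjusted p = 0.049, and after TPM scaling, at 0.24 and 0.035.

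QKI, the quaking protein that in muscle also shapes the output of circular RNAs, lies at chr9:98820539-98975050 on the plus strand (ENSBTAG00000011593). It held 118, 117 and 134 FPKM in GM and 119, 126 and 120 FPKM in DM. The DM libraries all lay inside the GM range. The log2 fold change was -0.01, with a 95% interval from -0.16 to 0.14 and an adjusted p of 0.90 by limma. Its sign turned under 4 of the 16 alternative settings, among which the unadjusted p and the 2-fold limit cannot turn it.

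PTBP1 fell, by an amount that depended on scaling. It lies at chr7:43367474-43378190 on the plus strand (ENSBTAG00000045828), and its loss in favour of PTBP2 is known from neurons. It held 90.2, 95.5 and 88.8 FPKM in GM and 75.5, 83.6 and 80.6 FPKM in DM. All DM libraries lay below all GM libraries. The log2 fold change was -0.19 ± 0.056 (SE), with a 95% interval from -0.32 to -0.07 and an adjusted p of 0.023 by limma. It no longer passed after TPM scaling (-0.07, adjusted p = 0.40) or with median-of-ratios size factors (-0.13, 0.10). The same was true without the first or the second GM library (-0.20 and -0.16, adjusted p = 0.055 and 0.080) and without the first or the third DM library (-0.15 and -0.20, adjusted p = 0.10 and 0.060).

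Scaling mattered at this size of change. The FPKM of all genes summed to 415740.2 to 434458.3 in the GM libraries and to 386436.5 to 390826.9 in the DM libraries. With TPM, which sets those sums equal, 13494 genes reached the same minimum instead of 12302, and the median log2 fold change over the genes tested was 0.06 instead of -0.05. Under TPM the 9 genes split into 3 that rose (RBM24, RBFOX2 and RBM38) and 1 that fell (CELF2), instead of 1 and 2. With median-of-ratios size factors they split into 2 (RBM24 and RBM38) and 1 (CELF2). Over all genes, 1980 passed as higher and 3288 as lower with FPKM as deposited, 3113 and 2148 with TPM, and 2557 and 2660 with median-of-ratios size factors.

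**Figure D2:**
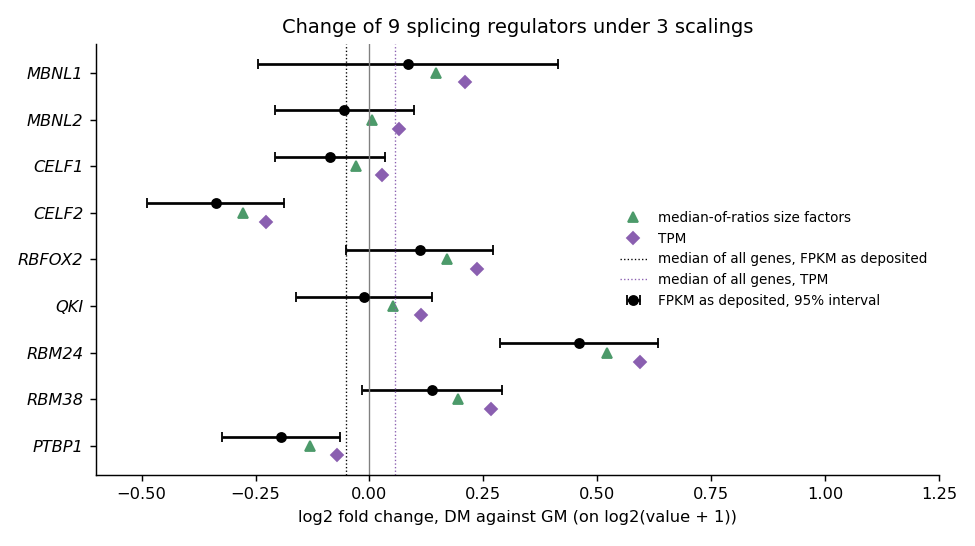
The log2 fold change of each regulator from GM to DM, as a circle with its 95% interval for FPKM as deposited, a triangle for median-of-ratios size factors and a diamond for TPM. Dotted lines mark the median of all tested genes, -0.05 for FPKM as deposited and 0.06 for TPM. RBM24 stays to the right of 0 and CELF2 to the left under all 3 scalings, and PTBP1 moves toward 0.

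Of 10 further genes of the same families or of related muscle splicing factors that were listed, 7 were in the table, and MBNL3, CELF3 and CELF5 were not analysed here. RBM20, the regulator of titin splicing in striated muscle, rose. It held 2.42, 2.44 and 2.41 FPKM in GM and 3.27, 3.63 and 3.45 FPKM in DM. Every DM library was higher, and the log2 fold change was 0.38 ± 0.065 (SE) at an adjusted p of 0.0020 by limma. PTBP3 fell, with mean FPKM of 11.0 in GM and 9.50 in DM, a log2 fold change of -0.20 and an adjusted p of 0.049 by limma. PTBP2, the neuronal paralog of PTBP1, had mean FPKM of 5.21 and 4.50 and an adjusted p of 0.13, and so did not pass.

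RBFOX1, the RBFOX gene of adult muscle, heart and brain, was not tested with FPKM as deposited, because its mean over GM and DM together lay below 0.5 FPKM. It held 0.109, 0.0720 and 0.148 FPKM in GM and 0.532, 0.528 and 0.602 FPKM in DM. The DM libraries were all higher, and even there its level was a small share of that of RBFOX2. CELF4, CELF6 and RBFOX3 were at or close to 0, with no library above 0.0611 FPKM.

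Other splicing regulators were counted in the same way, RBM20, PTBP2 and PTBP3 included. Of 66 tested regulators outside the 9, from a list of 82 of which 76 were in the table, 4 rose and 37 fell, where 16.1% and 26.7% of all tested genes did, and the median of their log2 fold changes was -0.20, against -0.05 for all genes. Under TPM the split was 8 and 19, where 3113 of 13494 genes rose and 2148 fell, and under median-of-ratios size factors 5 and 25. More genes of the list reached the minimum level under TPM, RBFOX1 among them, so the TPM counts are not of the same 66 genes. The 4 that rose were RBM20, HNRNPLL (0.25, adjusted p = 0.044 by limma), TRA2A (0.16, 0.046) and KHDRBS3 (0.37, 0.019), the last 3 named after their values were seen. Leaving out any 1 of the 6 libraries gave 1 to 3 that rose and 26 to 40 that fell. Of all tested genes, 1502 to 1948 then rose and 2637 to 3480 fell, against 1980 and 3288 with all 6 libraries. No difference between the 9 genes and this list was tested.

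Among 21 hnRNP genes, which encode abundant nuclear RNA-binding proteins, 1 rose and 14 fell, where 16.1% and 26.7% of all tested genes did. Their log2 fold changes had a median of -0.23. HNRNPA1 had mean FPKM of 517 ± 31.6 (SD, n = 3) in GM and 287 ± 19.0 in DM, a log2 fold change of -0.85 ± 0.068 (SE) and an adjusted p of 3.3e-05 by limma. Copies of HNRNPA1 elsewhere in the genome can share its reads, so its level is uncertain. HNRNPD, also known for binding AU-rich mRNA elements, went from 150 ± 4.93 to 97.4 ± 0.531 FPKM, a log2 fold change of -0.61 at adjusted p = 2.2e-05. These were the only hnRNP genes of the list that passed with a fold change over 1.5, as 6.88% of all tested genes did downward.

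Of 13 tested SR genes, whose proteins are rich in serine and arginine, 1 rose and 9 fell. Of all tested genes, 16.1% rose and 26.7% fell. The median of the 13 log2 fold changes was -0.32. SRSF7 went from 49.5 ± 1.65 to 30.4 ± 0.344 FPKM (SD, n = 3), a log2 fold change of -0.68 at an adjusted p of 1.5e-05 by limma. SRSF12 went from 3.74 ± 0.358 to 1.86 ± 0.257 FPKM, a log2 fold change of -0.73 at adjusted p = 0.00042. Of 29 other tested regulators, 1 rose and 13 fell. None of the 29 passed with a fold change over 1.5, while 4.89% of all tested genes did upward and 6.88% downward.

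**Figure D3:**
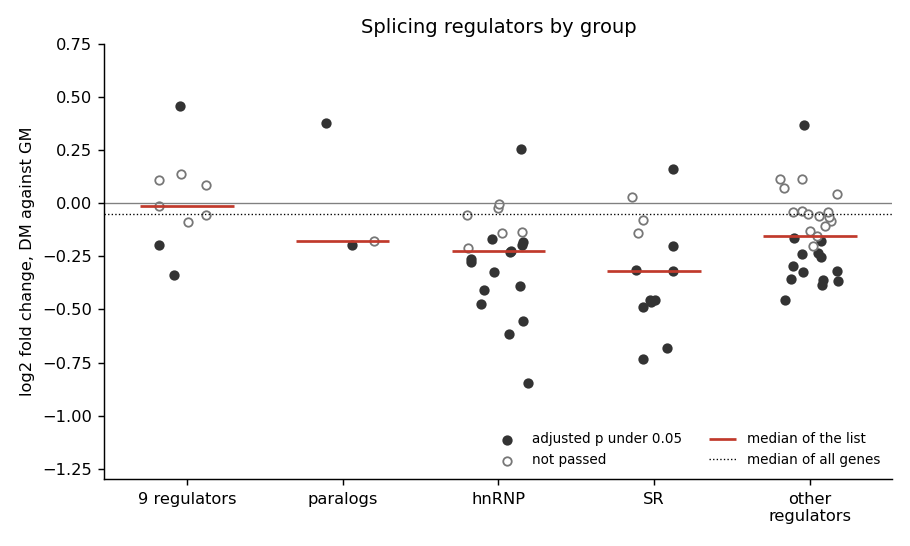
The log2 fold change from GM to DM of the 9 regulators, of 3 tested paralogs, 21 hnRNP genes, 13 SR genes and 29 other splicing regulators, 1 point a gene, filled where the adjusted p was under 0.05. The red line is the median of each list (-0.01, -0.18, -0.23, -0.32 and -0.16) and the dotted line that of all tested genes (-0.05).

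Muscle genes whose exons these proteins are known to act on rose more often than they fell at the level of the whole gene. Of 35 tested, 18 rose and 5 fell, where 16.1% of all tested genes passed as higher and 26.7% as lower, the median of their log2 fold changes was 0.20, and 13 of the 18 and 4 of the 5 also changed by more than 1.5-fold, as did 4.89% and 6.88% of all tested genes. The 4 became 1 under TPM, with median-of-ratios size factors or without the third GM library, and 2 without the second DM library. MEF2C, a muscle transcription factor with fetal and adult exons, went from 7.79 to 70.1 mean FPKM, a log2 fold change of 3.02 at an adjusted p of 2.4e-08 by limma. FN1, which encodes fibronectin and is also a matrix gene of fibroblasts, went from 928 to 4498 mean FPKM (2.27). LDB3, which encodes a Z-disc protein, went from 1.94 to 6.95 mean FPKM (1.43). Falls included those of the integrin gene ITGA7 (21.7 to 5.16 mean FPKM, -1.88) and the kinase gene SPEG (6.08 to 3.71, -0.59). FXR1 stands both in this list and among the other splicing regulators, MEF2C and NEB are also muscle differentiation markers, and ITGA7 is also a myoblast marker.

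MYOG, CDKN1A and TP63, listed as mRNA targets of RBM24 or RBM38, all rose. MYOG, the myogenin gene, held 193, 190 and 207 FPKM in GM and 250, 226 and 253 FPKM in DM, a log2 fold change of 0.31 at an adjusted p of 0.0046 by limma. CDKN1A, the cell cycle inhibitor, rose by 0.33 on the log2 scale, from 119 to 151 mean FPKM, at adjusted p = 0.0035. TP63, a transcription factor gene of epithelia, held 0.141, 0.267 and 0.146 FPKM in GM and 3.14, 4.08 and 2.75 FPKM in DM, a log2 fold change of 1.86 at adjusted p = 9.6e-06.

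Markers of muscle and of other cell types were read in the same libraries, and their part in the changes above was not tested. Of 18 muscle differentiation genes, 12 rose and 3 fell, where 16.1% and 26.7% of all tested genes did. Their summed level was 1466 to 1617 FPKM in the GM libraries and 2320 to 2437 in the DM libraries. MYOG at 197 mean FPKM and the embryonic myosin gene MYH3 at 273 were already present in GM. Of 7 tested myoblast genes, 6 fell, and all 6 proliferation genes fell, from a summed 90.2 to 99.6 FPKM to 18.4 to 21.9. MYOD1, MYF5 and DES stand in both the muscle differentiation and the myoblast list, and DES also among the smooth muscle genes. The 8 fibroblast genes summed to 16030 to 16185 FPKM in GM and 16869 to 17963 in DM, where 3 rose and 1 fell, and COL1A1 had mean FPKM of 6791 and 7420. Of 5 smooth muscle genes, 3 fell, and MYH11, which defines the type, was too low in GM and DM to be tested. It held 0.245, 0.286 and 0.314 FPKM in GM and 0.546, 0.481 and 0.561 FPKM in DM, higher in every DM library. The 6 adipocyte genes summed to at most 3.16 FPKM in any library, and the 5 endothelial genes to at most 0.874. In such bulk cultures, fewer cells of a type and less RNA per cell cannot be told apart.

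7 of the 9 genes had an m6A peak in GM and 8 did in DM, where 70.9% and 78.7% of all tested genes had one. N6-methyladenosine is a methyl mark on adenosines of mRNA, found mostly near stop codons and in last exons. The fold enrichment of a peak is IP over input coverage, so it is relative to the transcript's level. A group has 1 list and each peak 1 value without replicate error, so no difference between peaks was tested. CELF2 had no peak in either list, and PTBP1 had none in GM.

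Peaks of GM and DM that shared at least 1 base of exon on the same strand were matched. Of the 19 GM peaks, 10 matched exactly 1 DM peak, 7 took part in a merge or split, and 2 had no partner. Of the 19 DM peaks these counts were 10, 5 and 4. In the whole lists, 14.7% of GM peaks and 28.7% of DM peaks had no partner. The annotation placed 11 GM and 8 DM peaks of the 9 genes in 5′ UTRs and 7 and 10 in 3′ UTRs, where in the whole lists 16.1% and 18.2% were in 5′ UTRs and 42.6% and 45.3% in 3′ UTRs. A peak that spans several exons has a single annotation, so a 5′ UTR peak here can reach into coding exons.

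Of the 10 matched pairs, 1 changed by more than 1.5-fold and it was lower in DM. Over all 10239 matched pairs, 14.2% were higher in DM by more than 1.5-fold and 10.8% lower. The log2 ratios of DM to GM of the 10 pairs ran from -1.18 to 0.54, with a median of 0.11 against 0.07 for all pairs, and 6 of the 10 were above 0.

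QKI held the changed pair. Its 1 peak had a fold enrichment of 8.69 in GM, the highest of the 9 genes there, and 3.83 in DM. The GM value was 2.27 times the DM value, while the FPKM of QKI in DM stayed within the GM range. The GM peak at chr9:98820539-98867820 covered 446 bases of 2 exon blocks and the DM peak at chr9:98820539-98942868 covered 684 bases of 4 blocks. Both began at the 5′ end of the gene with the same 367 bases, and the whole GM peak lay within the DM peak. The DM value is therefore taken over more exon, and a value for the shared 446 bases alone is not given in the list. The log2 ratio was -1.18, and -1.26 after the median of all pairs was subtracted.

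MBNL2 had the other strong peak at the 5′ end of a gene. Its peak reached a fold enrichment of 6.59 in GM, over 1320 bases of 4 exon blocks at chr12:74410787-74526065. In DM it reached 8.69 over 1380 bases of 5 blocks at chr12:74410787-74528771. The DM value was 1.32 times the GM value, inside the 1.5-fold limit. DM also had a pair of weak 3′ UTR peaks, both at 1.38, of 181 and 240 bases and without partner in GM, at log10 false discovery rate (FDR) of -6.46 and -8.61.

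MBNL1 peaks merged. GM had a peak of 2.22 over 210 bases at chr1:115461440-115461649 and one of 1.55 over 210 bases in 2 blocks at chr1:115462275-115524938. In DM a single peak of 2.34 covered both, over 1194 bases of 3 blocks. Its exon length in peaks was thus 2.84 times as long in DM, where the median of 8434 genes with peaks in both lists was 1.21, with quartiles of 1.00 and 1.65.

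RBM24 had 3 peaks in each list, and their balance along the gene differed. At the 5′ end, GM had 1 peak of 2.81 over 629 bases of 2 blocks, and DM had 2 weak peaks there, of 1.35 over 61 bases and of 1.41 over 300 bases in 4 blocks, the last of which lay near the 3′ end. At the 3′ end, GM had 2 peaks of 1.48, of 121 bases in the exon and of 300 bases in the 3′ UTR, and DM had 1 of 2.61 over 959 bases at chr23:40056592-40057550. The 5′ value was thus the higher one in GM and the 3′ value the higher one in DM. As merges and splits these are not matched pairs, so no ratio is given for them.

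RBM38 had its highest fold enrichment at the very end of the gene in both lists. The peak that ended at the 3′ end of the gene had a fold enrichment of 5.44 over 269 bases in GM and of 7.45 over 358 bases in DM, and the DM peak also overlapped a GM peak of 61 bases at 1.55. A second 3′ UTR peak was matched, with 2.83 over 805 bases in GM and 2.58 over 894 bases in DM. By log10 FDR this second peak ranked ahead, at -33.0 in GM and -29.5 in DM, against -13.7 and -11.1 for the end peak. A 5′ UTR peak of 1.79 over 149 bases was listed in GM alone (log10 FDR of -4.09), and a 3′ UTR peak of 1.28 over 90 bases in DM alone (-1.90).

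**Figure D4:**
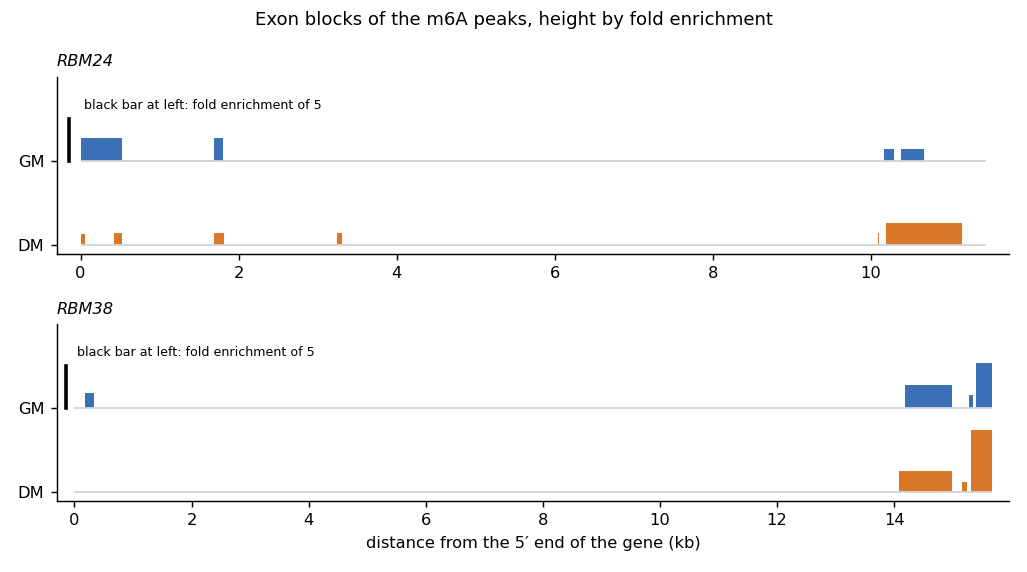
Exon blocks of the m6A peaks of RBM24 and RBM38 in GM and DM, by distance in kb from the 5′ end of the gene, with heights that show the fold enrichment of the peak. In RBM24 the tallest block lies at the 5′ end in GM (2.81) and at the 3′ end in DM (2.61), and in RBM38 the tallest block lies at the 3′ end in both (5.44 and 7.45).

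RBFOX2 had the most peaks, 5 in each list, and all 5 were matched. The one with the highest fold enrichment, within its 5′ UTR annotation at chr5:73936456-73995368 in GM, had 5.44 in GM and 6.39 in DM over 867 and 927 bases. Its 3′ UTR peaks had 2.05 and 1.77 in GM and 2.98 and 1.90 in DM, a ratio of 1.45 and 1.07. The first of these ended at the 3′ end of the gene and was 61 bases long in GM and 300 in DM. The remaining 5′ UTR pairs went the other way, from 2.30 to 1.85 and from 2.25 to 1.63, and the first of them had an FDR over 0.05 in both lists.

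CELF1 had a 3′ UTR peak of nearly the same extent in both lists, with 3.30 over 747 bases in GM and 3.56 over 746 bases in DM, of which 717 were shared. A short peak close to its 5′ end, of 2.18 and 2.77, had an FDR over 0.05 in both lists. A 5′ UTR peak of 2.54 over 150 bases was listed in GM alone, at log10 FDR of -3.67. PTBP1 had 1 peak, in DM alone, of 1.67 over 240 bases at the 3′ end of the gene (chr7:43377951-43378190, log10 FDR of -7.02). The CELF2 gene had no listed peak, while its FPKM was above that of CELF1 and RBM38 in every library, and both of those genes had peaks.

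**Figure D5:**
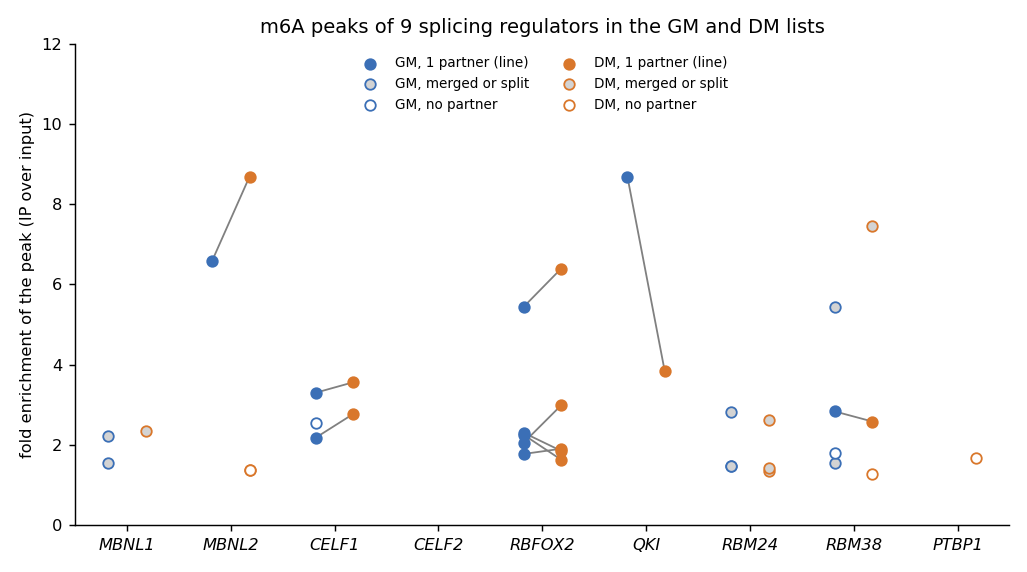
Fold enrichment (IP over input) of every m6A peak of the 9 regulators, GM at the left and DM at the right of each gene, with lines between the 10 matched pairs, grey fill for peaks in a merge or split and open circles for peaks without partner. Both 3′ UTR peaks of MBNL2 in DM lie at 1.38 and 2 GM peaks of RBM24 at 1.48, so their circles coincide. QKI shows the steepest line, from 8.69 to 3.83.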

How the data were processed

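RNA-seq of 3 GM and 3 DM input libraries and m6A-seq of the matching IP libraries were made from poly(A) RNA with strand-specific libraries. The authors aligned reads to ARS-UCD1.2 with HISAT2 and quantified genes with StringTie, and the deposited FPKM values are per gene and input library. FPKM values do not hold the read depth, so precision is the spread of 3 libraries. The authors called peaks with exomePeak, with input as background, and annotated them with ChIPseeker. Each deposited list gives a fold enrichment (a ratio of IP over input), an unadjusted p-value of at most 0.05, and log10 values of p and FDR, which are treated as scores of the authors' caller. Replicates were thus already combined in the peak lists.

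The 12302 of 18436 genes whose mean reached 0.5 FPKM were tested with limma 3.58.1 in R 4.3.3 on log2(FPKM + 1) with a variance trend. Paralog ratios were compared by exact permutation in scipy 1.17.1. Peaks were matched by exon blocks, and a change is a ratio over 1.5. The 9 genes, the gene lists and the tests were chosen with earlier results of these data known. All 9 genes and all their peaks are named, every listed paralog in the table, the 3 genes of each other list that passed with the greatest change over 1.5-fold in each direction, and the genes of the short list of mRNA targets. Some genes that this rule names are not reported here. No other gene of the table overlaps one of the 9. MBNL3, CELF3, CELF5, HNRNPH2, SRSF8, RBM10, TTN, DMD, FHL1, CEBPA and KDR were not analysed here. Both the limma fit and the peak matching were tested on simulated data. Alternatives covered pseudocounts of 0.1 and 0.5, the filter, TPM, median-of-ratios size factors, a replicate block, no variance trend, other thresholds, leaving out each library in turn, stricter peak sets and centred ratios. No sequence is shown because no genome of the build was used.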

Additional observations from a re-analysis of the deposited data

How the results depend on the processing

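RBM24 and CELF2 kept their direction and passed in all 16 alternative settings of the expression test. The unadjusted p and the 2-fold limit reuse the main fit, so neither gene could fail or turn sign in those settings. With TPM, 3 of the 9 genes rose and 1 fell, 1 of them (RBM24) over 1.5-fold. Of the other splicing regulators that reached the minimum level under TPM, 8 rose and 19 fell, 1 and 2 of them over 1.5-fold. Of the splicing and mRNA targets as a single list, 1 fell over 1.5-fold with TPM. With median-of-ratios size factors 2 of the 9 rose, 1 fell, and 1 target fell over 1.5-fold. TPM turned the log2 fold changes of CELF1 (0.028), QKI (0.11) and MBNL2 (0.066), and size factors those of QKI (0.052) and MBNL2 (0.0059). With a limit of 2-fold, 0 other regulators and 1 target were called lower. Without the variance trend 2 other regulators rose. Leaving out 1 library gave 1 to 2 of the 9 higher and 1 to 2 lower, 1 to 3 other regulators higher and 1 to 4 targets lower over 1.5-fold, log2 fold changes from -0.042 to 0.23 for MBNL1, and from -0.047 to 0.053 for QKI. The targets lower over 1.5-fold numbered 1 without the third GM library and 2 without the second DM library. A fold enrichment of at least 2 left 13 of the 19 member peaks in GM and 10 of the 19 in DM.

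The labels do not say whether same-numbered GM and DM libraries belong together. Their deviations from the group means correlated at -0.08, -0.12 and -0.21, with no positive value. With 3 libraries a group such deviations are tied to each other, so these values cannot settle the pairing. With the replicate number as a replicate block, 1 of the 9 genes rose and 2 fell as without it (PTBP1 at adjusted p = 0.049), 2 other regulators rose instead of 4 and 30 fell instead of 37. Of the 39 splicing and mRNA targets, counted as a single list, 18 rose instead of 21 and 6 fell in both fits. Over all 12302 tested genes, 1650 instead of 1980 passed as higher and 2863 instead of 3288 as lower. The sign-flip p of the same-numbered differences was 0.25 for RBM38 over RBM24, the smallest that 3 pairs allow. The widest 95% interval of the 9 log2 fold changes was that of MBNL1, from -0.24 to 0.41, and peak values have no replicate error at all.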
